A study of Mus musculus with 40 samples.

Results

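The 10 genes described here are transcriptional targets of NRF2 that carry the antioxidant defence of a cell: Hmox1, Nqo1, Slc7a11, Gclm, Gclc, Txnrd1, Srxn1, Prdx1, Gsr and Sqstm1. They were chosen by name from the 54513 gene rows of each of 3 expression tables. No threshold on a measured value was applied, although earlier results of these data were known when they were chosen. All 10 had a row in every table. On mm10 they lie on chromosomes 2 (Srxn1), 3 (Slc7a11 and Gclm), 4 (Prdx1), 8 (Hmox1, Nqo1 and Gsr), 9 (Gclc), 10 (Txnrd1) and 11 (Sqstm1), and values were summed over their exons.

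NRF2, encoded by Nfe2l2, is a transcription factor that KEAP1 holds in the cytoplasm and hands to a CUL3 ubiquitin ligase for degradation. Oxidants and electrophiles modify KEAP1, NRF2 then accumulates, pairs with a small MAF protein (MAFF, MAFG or MAFK) and binds antioxidant response elements, where BACH1 competes with it as a repressor. In macrophages and microglia the targets supply glutathione and reduced thioredoxin and break down the heme of engulfed red cells.

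The study asked how 7aaRGD, a peptide that blocks integrin signaling, alters the myeloid cells of experimental gliomas, alone or with an antibody to PD-1. RNA was sequenced from CD11b+ cells sorted from tumor-bearing or naive brain hemispheres of male young adult mice. In the first experiment C57BL6 mice carried GL261, a murine glioma line, for 21 days (21 DPI) with an osmotic pump that delivered water (Vehicle), 7aaRGD or 7aaRAE, a control peptide in which the RGD sequence that integrins recognise is altered. Naive mice had no tumor. There were 3 samples per group, each pooled from 2 animals. In the second experiment the groups were Vehicle (4 samples), 7aaRGD (4), anti-PD-1 (3) and 7aaRGD + anti-PD-1 (3, below the combination) at 28 DPI, with 1 animal per sample, and mice not given anti-PD-1 received control IgG. The labels call these 28 DPI hosts nude mice, whereas the methods place the experiment in C57BL/6 mice with GL261. In the third experiment nude mice, which lack a thymus and hence most T cells, carried the human line U87-MG for 21 days and received Vehicle, 7aaRGD or 7aaRAE (3 samples each, 2 animals pooled). The fourth anti-PD-1 and combination samples and the naive nude mice were not analysed here.

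Levels are RPKM, reads scaled to the length of the gene and to the reads of the sample. The deposited values were on the scale of RPKM plus a constant of 2, which was subtracted. They were not plain RPKM, since some lay below that constant, and the number of reads per sample is unknown. Differences are log2 fold changes of RPKM + 1 with their standard error (SE), from limma fits over every protein-coding gene that averaged 1 RPKM or more, and a gene was called when its Benjamini-Hochberg adjusted p was under 0.05. The scale understates the change of genes near 1 RPKM. In both GL261 tables the differences between replicates spanned 1 dimension fewer than the samples allow (7 of 8 and 9 of 10), as if 1 component had been removed before deposit, so replicates may look closer than they were. Every sample was myeloid by its markers: the summed RPKM of Itgam, Ptprc, Csf1r, Aif1, Cd68 and Tyrobp was between 2697 and 5140 in all groups, against at most 35.6 for 6 T and NK cell genes.

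Upstream sequence was at hand for 7 of the 10 genes (RefSeq, GRCm38.p6), and these windows are shown because the antioxidant response element is the feature that would tie the genes to NRF2. The 250 bases before each annotated start were searched on both strands for the core TGACNNNGC, whose reverse is GCNNNGTCA. A match was found for 3 of the 7 genes, Gclm, Prdx1 and Txnrd1, where 11.5% of all 27025 genes searched the same way hold one. Hmox1, Gclc and Gsr were not searched. The windows of these 3 genes follow, 5′ to 3′ on the gene's own strand, with the match in capitals. All 3 matches lie on the opposite strand, where they read TGACGGTGC, TGACTCAGC and TGACAAAGC.
Gclm, chr3:122245307-122245556, plus strand, match 126 to 134 bases before the start: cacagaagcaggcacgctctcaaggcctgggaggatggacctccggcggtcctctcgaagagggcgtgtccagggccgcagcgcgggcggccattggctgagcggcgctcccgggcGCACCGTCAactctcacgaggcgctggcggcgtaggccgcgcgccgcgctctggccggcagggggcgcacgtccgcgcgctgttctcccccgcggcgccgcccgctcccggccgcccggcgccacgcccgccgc
Prdx1, chr4:116685349-116685598, plus strand, match 125 to 133 bases before the start: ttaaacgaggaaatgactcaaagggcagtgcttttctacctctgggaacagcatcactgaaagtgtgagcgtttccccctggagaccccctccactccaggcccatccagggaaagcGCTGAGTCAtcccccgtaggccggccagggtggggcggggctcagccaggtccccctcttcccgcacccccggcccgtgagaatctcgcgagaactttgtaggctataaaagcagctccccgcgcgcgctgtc
Txnrd1, chr10:82858956-82859205, plus strand, 1 of 3 annotated starts, match 84 to 92 bases before it: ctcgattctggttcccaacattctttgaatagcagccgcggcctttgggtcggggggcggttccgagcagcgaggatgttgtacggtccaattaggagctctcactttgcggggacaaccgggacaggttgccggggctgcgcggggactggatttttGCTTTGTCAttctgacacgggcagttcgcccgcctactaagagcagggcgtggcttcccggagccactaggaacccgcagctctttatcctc
The match in Prdx1 also holds TGAGTCA, the core that AP-1 factors bind. The searched windows of Nqo1, Slc7a11, Srxn1 and Sqstm1 hold no match to TGACNNNGC on either strand, which says nothing about sites elsewhere. That of Srxn1 does hold TGAGTCA.

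**Figure D1:**
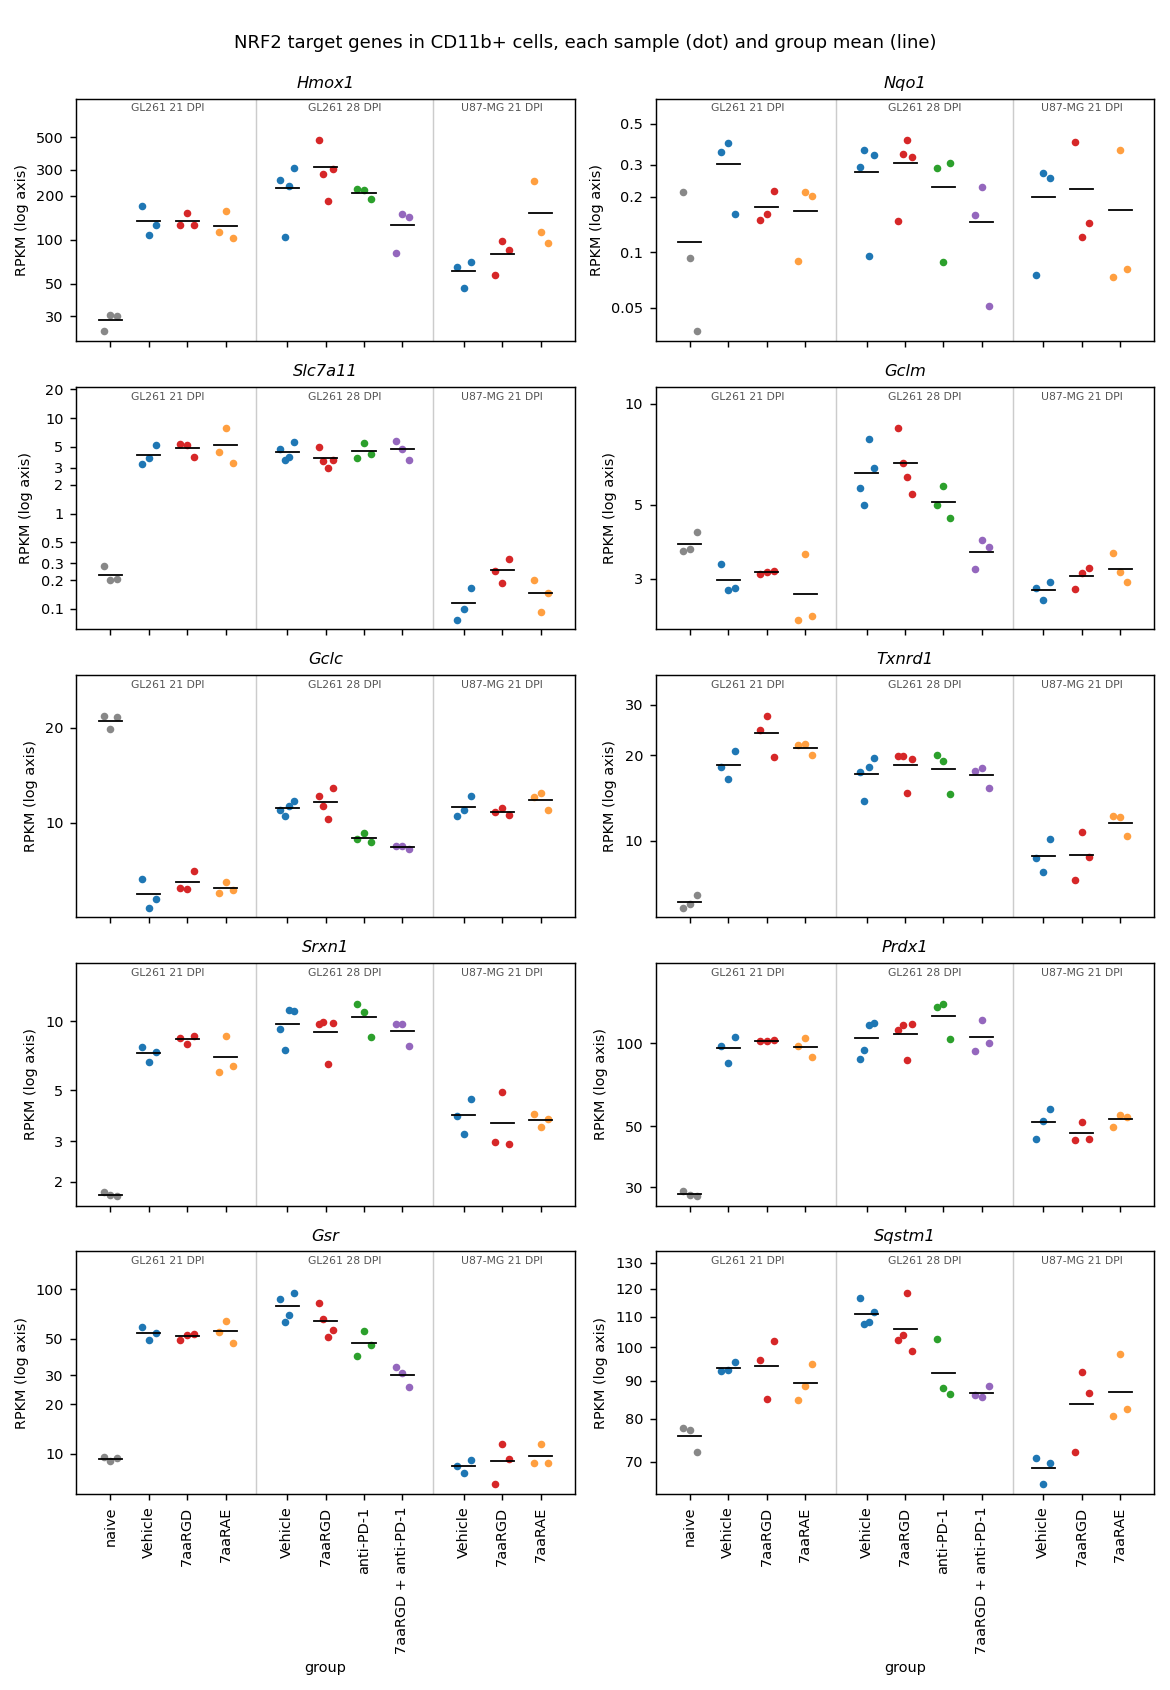
RPKM of the 10 genes in every sample (dots, log axis) and the mean of each group (line), with the 3 experiments side by side in each panel. Naive samples are the lowest of their table for Hmox1, Slc7a11, Txnrd1, Srxn1, Prdx1, Gsr and Sqstm1 and the highest for Gclc and Gclm. Nqo1 stays under 0.5 RPKM in every sample.

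The first comparison shows how CD11b+ cells of a GL261-bearing hemisphere differ from those of naive brain. Glutathione reductase, heme oxygenase and the genes of the thioredoxin arm were higher in the tumor, but both subunits of the enzyme that starts glutathione synthesis were lower. Of the 8 genes that averaged at least 1 RPKM in both groups, 6 rose and 2 fell at an adjusted p under 0.05. This stands against 81% called among the 8650 genes at that level in both groups, 2834 higher and 4174 lower. Of all 9727 genes tested 82.9% were called, 34.6% higher and 48.2% lower, so the calls alone do not mark out the NRF2 targets. The median log2 fold change of the 8 genes was 1.51, and that of all genes was -0.14. Slc7a11 passed the filter on low values only through the tumor samples, so its difference was given by the filter and is described with no test.

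Hmox1 encodes heme oxygenase-1, which splits heme into biliverdin, iron and carbon monoxide. It stood at 23.5, 30.3 and 30.2 RPKM in the naive samples and at 170.3, 108 and 125 RPKM in Vehicle. The groups did not overlap, as for 85.4% of all genes in this comparison, and the log2 fold change was 2.21 (SE 0.168, adjusted p = 5.04e-06). Nqo1, the quinone reductase often used as an index of NRF2 activity, was between 0.0372 and 0.390 RPKM in these samples. It was under the filter in all 3 experiments and was not tested.

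Slc7a11 encodes the cystine importer xCT, which brings in the building block of glutathione. Its level was 0.279, 0.202 and 0.204 RPKM in naive samples and 3.27, 3.81 and 5.25 RPKM in Vehicle. Gclc and Gclm encode the catalytic and the modifier subunit of glutamate-cysteine ligase, the rate-limiting enzyme of glutathione synthesis. Gclc fell from 21.7, 19.8 and 21.6 RPKM in naive samples to 6.67, 5.39 and 5.76 RPKM in Vehicle (log2 fold change -1.67, SE 0.0787, adjusted p = 3.39e-07). Gclm stood at 3.63, 3.69 and 4.14 RPKM in naive samples and at 3.33, 2.77 and 2.83 RPKM in Vehicle, a log2 fold change of -0.28 (SE 0.0772, adjusted p = 0.00956). That fall was small, and with samples rescaled by median-of-ratios factors it was -0.14 with an adjusted p of 0.0947. Set per length, the cells held 5.52 ± 0.415 (SD, n = 3) Gclc transcripts for each Gclm transcript in naive brain and 2.00 ± 0.0489 (SD, n = 3) in Vehicle.

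Gsr encodes glutathione reductase, which returns oxidised glutathione to its reduced form with NADPH. Among the 8 genes its rise was the largest on the log2 scale of RPKM + 1, from 9.57, 9.05 and 9.52 RPKM to 59.2, 49.2 and 54.2 RPKM, a 5.31-fold difference on the RPKM + 1 scale (log2 fold change 2.41, SE 0.0730, adjusted p = 4.45e-08). The 3 genes of the thioredoxin arm also rose, each with no overlap between the groups. Prdx1, a peroxiredoxin that reduces hydrogen peroxide, went from between 27.9 and 29.1 RPKM to 97.4, 84.7 and 105.0 RPKM (log2 fold change 1.71, SE 0.0801). Srxn1 encodes sulfiredoxin, which revives overoxidised peroxiredoxins, and went from between 1.73 and 1.80 RPKM to 7.70, 6.67 and 7.36 RPKM (1.58, SE 0.0648). Txnrd1, the cytosolic thioredoxin reductase, went from between 5.80 and 6.44 RPKM to 18.2, 16.5 and 20.6 RPKM (1.45, SE 0.0836). Sqstm1 encodes p62, an autophagy receptor that also binds KEAP1. It was already the highest of the 10 in naive cells, at 77.8, 77.3 and 72.1 RPKM, and rose to 92.7, 93.1 and 95.5 RPKM (log2 fold change 0.31, SE 0.0534, adjusted p = 0.000827).

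The order of the genes by level changed with the tumor. In naive samples the mean levels ran from Sqstm1 at 75.7 RPKM through Prdx1 at 28.4, Hmox1 at 28.0 and Gclc at 21.0 down to Gsr at 9.38, Txnrd1 at 6.08, Gclm at 3.82 and Srxn1 at 1.76 RPKM, with Slc7a11 and Nqo1 under 0.3. Prdx1 and Hmox1 did not differ there beyond their spread. In Vehicle, Hmox1 led at 134.5 RPKM, ahead of Prdx1 at 95.7 and Sqstm1 at 93.8, which overlapped each other. Gsr at 54.2 and Txnrd1 at 18.4 RPKM followed, Gclc had dropped to 5.94 RPKM, behind Srxn1 at 7.24, and Slc7a11 at 4.11 overlapped Gclm at 2.98 RPKM. The sum of the 10 genes was 174.6 ± 1.57 RPKM in naive samples and 417 ± 44.5 RPKM in Vehicle (SD, n = 3 each).

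The regulators moved too. Nfe2l2 rose from between 72.3 and 82.2 RPKM to between 94.7 and 112 RPKM (log2 fold change 0.40, SE 0.0822, adjusted p = 0.00213), Keap1 rose by 0.52 (SE 0.0676) and Bach1 by 0.20 (SE 0.0569). Maff, a small MAF partner, went from between 0.220 and 0.326 RPKM to between 11.8 and 14.3 RPKM. Of 39 other genes of the pathway 38 were tested, and 28 rose and 6 fell, where 82.9% of all genes were called. Maff and Mgst1, a membrane-bound glutathione transferase, passed the filter only through the tumor samples. Of the other 36 genes 26 rose and 6 fell (88.9% called, against 81% of all genes that averaged 1 RPKM in both groups). The 38 genes comprised 8 regulators (6 rose, 1 fell), 8 other glutathione genes (6 rose, 2 fell), 7 other thioredoxins and peroxiredoxins (6 rose), 5 NADPH-making enzymes (4 rose), 4 genes of heme and iron handling (4 rose) and 6 further targets (2 rose, 3 fell). Mgst1 stood at 0.762 to 1.08 RPKM in naive samples and 25.2 to 47.9 RPKM in Vehicle. The largest falls were those of Ephx1, an epoxide hydrolase (-1.99, SE 0.140), and of Cbr1, a carbonyl reductase (-1.15, SE 0.0659).

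Markers of the make-up of the sorted cells also differed between naive brain and Vehicle. The median log2 fold change was -3.41 for the microglia markers and 3.79 for the monocyte and macrophage markers. All 9 microglia markers fell and 8 of 9 monocyte and macrophage markers rose: the microglia markers summed to between 16200 and 16760 RPKM in naive samples and 1351 to 1971 RPKM in Vehicle, and the monocyte markers to between 49.9 and 68.8 RPKM and 1603 to 3333 RPKM. None of these markers was at 0 in either group. Immediate early and heat shock genes, which tissue dissociation also induces, summed to between 530.0 and 633 RPKM in naive samples and 1162 to 1567 RPKM in Vehicle, with 2 of 6 higher and 2 lower. In such bulk samples, fewer cells of a type and less RNA per cell cannot be told apart. The part of the cell mixture and of handling in the differences of the 10 genes was not tested.

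**Figure D2:**
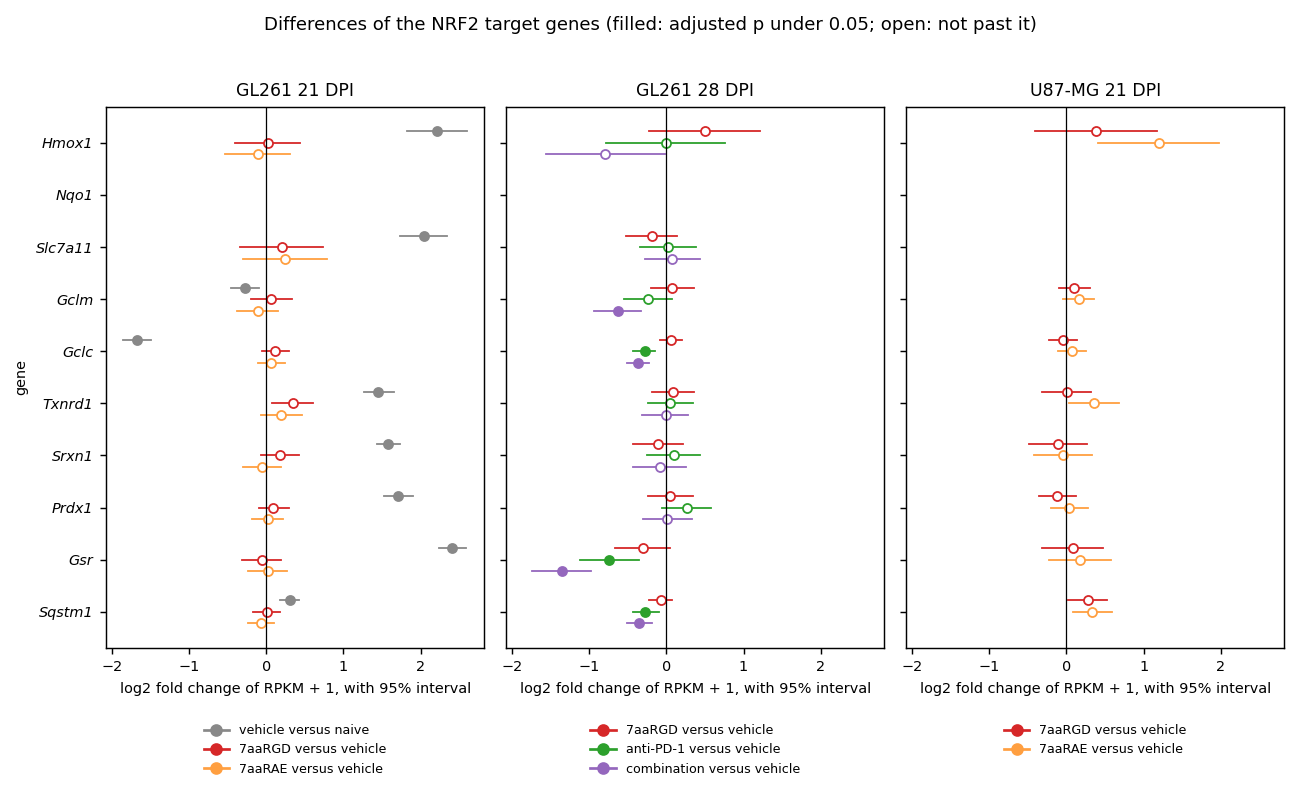
Log2 fold change of RPKM + 1 with its 95% interval for each gene, in 3 panels by experiment and coloured by comparison. Filled points passed an adjusted p of 0.05: every gene tested against naive brain (Slc7a11 only through the filter on low values), none for a peptide alone, and only falls at 28 DPI, where Gsr reached -0.74 with anti-PD-1 and -1.35 with the combination.

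The second question was whether the peptides alter these genes in GL261 tumors. At 21 DPI no member was called with either peptide. For 7aaRGD against Vehicle 0.148% of 9440 genes were called, and the 9 genes tested lay between -0.06 and 0.35 with a median of 0.09, against 0.02 for all genes. Txnrd1 was the furthest, at 24.5, 27.4 and 19.7 RPKM with 7aaRGD against 18.2, 16.5 and 20.6 RPKM with Vehicle. The groups overlapped, and the log2 fold change of 0.35 (SE 0.117, 95% interval 0.08 to 0.61) had an unadjusted p of 0.0149 by limma, a level that 13.5% of all genes passed, and an adjusted p of 0.270. Srxn1 was the only gene of the 10 whose groups did not overlap, at 8.46, 7.93 and 8.63 RPKM against 7.70, 6.67 and 7.36 RPKM, a separation seen for 17.6% of all genes. Its log2 fold change was 0.18 (95% interval -0.07 to 0.43).

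Hmox1 stood at 125, 151 and 126 RPKM with 7aaRGD, 112, 157 and 103 RPKM with 7aaRAE and 108 to 170.3 RPKM with Vehicle. The 95% interval of its log2 difference from Vehicle ran from -0.41 to 0.44 for 7aaRGD and from -0.54 to 0.31 for 7aaRAE. With 3 samples a group, the data are compatible with differences anywhere within these limits. Slc7a11 had the widest intervals, -0.34 to 0.73 for 7aaRGD and -0.30 to 0.78 for 7aaRAE, whose samples stood at 4.39, 7.87 and 3.40 RPKM. For 7aaRAE against Vehicle limma called 0% of all genes, while 6.36% had an unadjusted p under 0.05, and the 9 tested members lay between -0.11 and 0.24. All 9 overlapped Vehicle, where 12.6% of all genes did not.

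7aaRGD and 7aaRAE differ in the integrin-binding tripeptide, and they were given at the same times in the same experiment. Of 9 genes compared between them none was called, nor was any gene of the table (0%, against 5.51% with an unadjusted p under 0.05). The furthest was Srxn1, higher with 7aaRGD by 0.24 (95% interval -0.01 to 0.48, adjusted p = 0.945), and the interval of Gsr was -0.33 to 0.16. These intervals leave room for differences of about that size in either gene. The comparisons with Vehicle share the same 3 Vehicle samples. None of the other 38 pathway genes was called with either peptide, and Nfe2l2 moved by 0.09 (SE 0.0930) with 7aaRGD and 0.17 (SE 0.0930) with 7aaRAE.

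The experiment at 28 DPI placed 7aaRGD beside the blockade of PD-1, the T cell checkpoint receptor. Gsr, Gclc and Sqstm1 fell with anti-PD-1, and Gsr, Gclm, Gclc and Sqstm1 fell with the combination, while Txnrd1, Srxn1, Prdx1 and Slc7a11 did not pass the test in any comparison. The call shares were 0.647% of 9737 genes for 7aaRGD, 23.1% for anti-PD-1 (12.2% lower) and 43.3% for the combination (25.8% lower), all against the same 4 Vehicle samples. Of the 9 genes tested, 0, 3 and 4 were called in these comparisons, and every call was a fall. The counts are few and the shares of all genes are large, so the counts alone do not single out the NRF2 targets.

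Gsr had the largest change from Vehicle among the 9 genes with anti-PD-1 and with the combination. It stood at 87.3, 62.9, 69.9 and 95.2 RPKM with Vehicle, 81.95, 65.8, 51.2 and 56.5 RPKM with 7aaRGD, 39.1, 55.4 and 45.9 RPKM with anti-PD-1 and 33.8, 31.0 and 25.3 RPKM with the combination. Every anti-PD-1 and combination sample lay below every Vehicle sample, and the combination also lay below anti-PD-1. Of all genes, 17.1% with anti-PD-1 and 28.8% with the combination lay wholly below Vehicle in this way. Against Vehicle the log2 fold change was -0.30 with 7aaRGD (SE 0.165, adjusted p = 0.409), -0.74 with anti-PD-1 (SE 0.178, adjusted p = 0.0103) and -1.35 with the combination (SE 0.178, adjusted p = 6.84e-05).

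Gclm stood at 5.62, 4.99, 7.88 and 6.45 RPKM with Vehicle, 8.48, 6.67, 6.04 and 5.39 RPKM with 7aaRGD, 4.55 to 5.68 RPKM with anti-PD-1 and 3.21, 3.91 and 3.74 RPKM with the combination. Only the combination separated from Vehicle, with a log2 fold change of -0.63 (SE 0.142, adjusted p = 0.00302), and anti-PD-1 alone gave -0.24 (adjusted p = 0.241). Gclc was tighter: 10.9, 10.5, 11.3 and 11.7 RPKM with Vehicle, 12.2, 11.3, 10.3 and 12.9 RPKM with 7aaRGD, 8.87, 9.28 and 8.72 RPKM with anti-PD-1 and 8.48, 8.46 and 8.29 RPKM with the combination. Both groups given the antibody lay below all Vehicle samples, at -0.28 (SE 0.0689, adjusted p = 0.0104) and -0.36 (SE 0.0689, adjusted p = 0.000980) from Vehicle. The ratio of Gclc to Gclm per length was 1.83 ± 0.283 with Vehicle (SD, n = 4) and 2.34 ± 0.263 with the combination (SD, n = 3).

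Sqstm1, at 117, 107, 108 and 112 RPKM with Vehicle, was 102, 88.0 and 86.4 RPKM with anti-PD-1 and 86.0, 85.7 and 88.6 RPKM with the combination. Neither group overlapped Vehicle. The log2 fold changes were -0.27 (SE 0.0757, adjusted p = 0.0229) and -0.35 (SE 0.0757, adjusted p = 0.00244). The first call was lost in 3 of 7 fits that left out 1 sample (anti-PD-1 sample 2 or 3, or Vehicle sample 1), where the change was -0.24 to -0.22 with adjusted p up to 0.0972.

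Hmox1 varied widely within Vehicle and 7aaRGD and little with anti-PD-1. It stood at 256, 103, 233 and 309.7 RPKM with Vehicle, 481, 281, 185 and 303 RPKM with 7aaRGD, 220.0, 218 and 188 RPKM with anti-PD-1 and 81.4, 149.8 and 143 RPKM with the combination. The combination was low, but 1 Vehicle sample at 103 RPKM lay among its samples, and the difference from Vehicle of -0.79 (SE 0.358) did not pass the test (adjusted p = 0.0903). Without that Vehicle sample it was -1.13 with an adjusted p of 0.00931. For 7aaRGD against Vehicle the difference was 0.50 with a 95% interval of -0.22 to 1.21.

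Txnrd1, Srxn1, Prdx1 and Slc7a11 overlapped between all 4 groups. With the combination their log2 differences from Vehicle were -0.01 (95% interval -0.31 to 0.28), -0.08 (-0.43 to 0.26), 0.01 (-0.30 to 0.33) and 0.07 (-0.28 to 0.43), each interval well short of the fall of Gsr. Prdx1 was 135, 138 and 103 RPKM with anti-PD-1 against 87.8 to 118 RPKM with Vehicle, a difference of 0.27 (adjusted p = 0.206). Nqo1 stood between 0.0514 and 0.409 RPKM in all 14 samples.

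**Figure D3:**
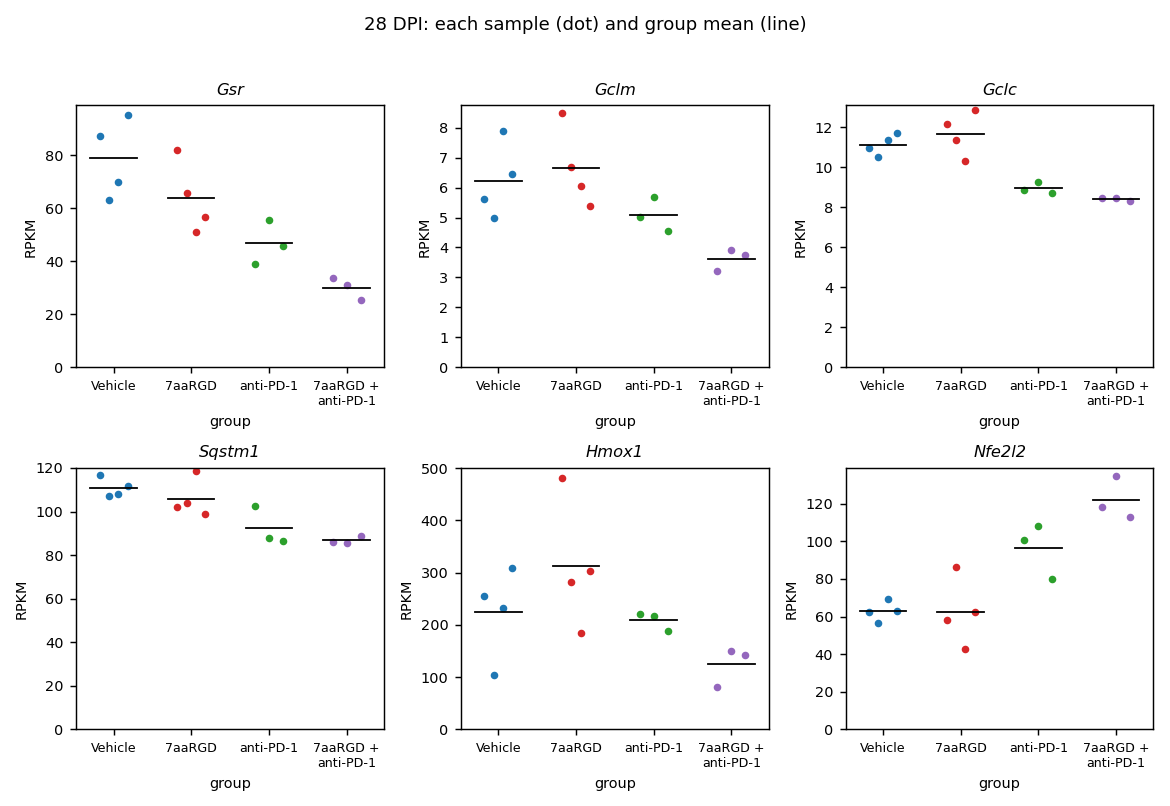
RPKM (linear axis from 0) of Gsr, Gclm, Gclc, Sqstm1, Hmox1 and the NRF2 gene Nfe2l2 in each 28 DPI sample (dots), with the group mean (line). Gsr means step down from 78.85 with Vehicle to 30.0 RPKM with the combination, while Nfe2l2 means step up from 62.8 to 122 RPKM.

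The combination was also set against each single treatment. Against 7aaRGD, 36.6% of genes were called (23.5% lower) and 5 of the 9 genes fell: Hmox1 by 1.29 (SE 0.358, adjusted p = 0.0134), Gsr by 1.05 (adjusted p = 0.000724), Gclm by 0.71 (0.00197), Gclc by 0.43 (0.000526) and Sqstm1 by 0.28 (0.0117) on the log2 scale. The Hmox1 call was lost without combination sample 1 (adjusted p = 0.0741), and the Sqstm1 call was lost with median-of-ratios factors (-0.21, adjusted p = 0.0844). Against anti-PD-1, where 0.0411% of genes were called, no member was called. Hmox1, Gclm, Gclc and Gsr did not overlap between these 2 groups, each lower with the combination, a separation that 15.3% of all genes showed, with Gsr at -0.62 (SE 0.191, adjusted p = 0.151) and Hmox1 at -0.78 (SE 0.382, adjusted p = 0.357). These comparisons share the combination samples.

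An interaction term tested whether the combination departed from the sum of its parts on the log2 scale. No gene of the table was called (0%, with 8.15% under an unadjusted p of 0.05). The term was -1.28 for Hmox1 (SE 0.506, unadjusted p = 0.0247, adjusted p = 0.588 by limma), -0.47 for Gclm (SE 0.201, adjusted p = 0.599) and -0.32 for Gsr (SE 0.252, adjusted p = 0.765).

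The NRF2 gene itself rose with anti-PD-1 and with the combination. Nfe2l2 stood at 62.6, 56.4, 69.2 and 63.2 RPKM with Vehicle, 58.2, 86.6, 43.0 and 62.4 RPKM with 7aaRGD, 101, 107.9 and 79.8 RPKM with anti-PD-1 and 118, 134.6 and 113 RPKM with the combination. It was higher than in any Vehicle sample in all 6 samples given the antibody, with log2 fold changes of 0.60 (SE 0.177, adjusted p = 0.0275) and 0.95 (SE 0.177, adjusted p = 0.000931). Keap1 and Bach1 were not called against Vehicle, at 0.05 (SE 0.0721) and -0.12 (SE 0.0739) with the combination, while Bach1 fell by 0.28 from 7aaRGD to the combination (adjusted p = 0.00941). Maff rose with the combination by 0.64 (SE 0.138, adjusted p = 0.00227). Among the 8 regulators, 2 rose (Nfe2l2 and Maff) and 2 fell (Mafg and Cul3) with the combination against Vehicle. Against 7aaRGD, 2 of them rose and 4 fell. Call shares over all genes were 43.3% and 36.6%.

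Among the 38 other pathway genes tested, 3 rose and 5 fell with anti-PD-1, and 7 rose and 14 fell with the combination. Of all genes 23.1% and 43.3% were called in these comparisons. Of the 8 other glutathione genes 3 fell with anti-PD-1 and 5 with the combination. All 8 had a negative log2 fold change in these comparisons and also with 7aaRGD alone, where none passed the test. Their median log2 fold change with 7aaRGD was -0.18. Over all genes, 49.01% were higher with anti-PD-1, 43.46% with the combination and 54.39% with 7aaRGD. All 3 comparisons share the same Vehicle samples. Gsto1, a glutathione transferase, was 74.0 to 98.4 RPKM with Vehicle, 41.1 to 47.4 RPKM with anti-PD-1 and 28.2 to 34.9 RPKM with the combination (log2 fold changes -0.97, SE 0.105, and -1.49, SE 0.105). Osgin1, an oxidative stress-induced growth inhibitor and NRF2 target, fell by 1.63 with the combination (SE 0.188, adjusted p = 2.67e-05), from 14.6 to 29.6 RPKM down to 5.39 to 6.35 RPKM. Ephx1 fell by 0.94 with anti-PD-1 (SE 0.231). The other thioredoxins and peroxiredoxins were divided with the combination, where 3 of 7 rose and 2 fell, and Prdx5 was the second largest rise with anti-PD-1 (0.42, SE 0.118). Of 5 NADPH-making enzymes 2 fell with the combination. Of the 4 genes of heme and iron handling 1 rose and 1 fell, and of 6 further targets 1 rose and 2 fell. With 7aaRGD alone none of the 38 was called. All 9 tested members overlapped between 7aaRGD and Vehicle, where 8.02% of all genes did not.

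Markers of cell make-up and of handling moved with these groups. The microglia markers summed to between 1567 and 2236 RPKM with Vehicle, 1830 and 3246 with 7aaRGD, 1795 and 2579 with anti-PD-1 and 2397 and 2545 with the combination, where 6 of 9 rose, against 2 with anti-PD-1 and 1 with 7aaRGD. The monocyte markers summed to between 454.5 and 887 RPKM, 419 and 1467, 554.9 and 1507, and 623 and 1402 RPKM in the same order, with 4 of 9 higher with anti-PD-1 and 4 higher and 1 (Mrc1) lower in the combination. Immediate early and heat shock genes summed to between 323 and 577 RPKM with Vehicle, 402.5 and 524 with 7aaRGD, 353.5 and 581 with anti-PD-1, where 1 of 6 rose, and 643 and 829 RPKM with the combination, where 5 of 6 rose. The 6 T and NK cell genes summed to between 1.67 and 6.21 RPKM with Vehicle, 1.32 and 4.93 with 7aaRGD, 2.03 and 28.7 with anti-PD-1, where none of 3 tested passed, and 12.5 and 35.6 RPKM with the combination, where 2 of 3 rose, and Cd3d was under 0.1 RPKM in every Vehicle sample. The part of any of these in the falls of Gsr, Gclm, Gclc and Sqstm1 was not tested.

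In nude mice with U87-MG tumors the cells kept more of the microglial profile, with microglia markers between 6559 and 10920 RPKM and monocyte markers between 71.7 and 176 RPKM over all groups. The table does not name its replicates, so the 3 values of a group are given in ascending order. Of the 10 genes, 8 could be tested, since Slc7a11 (0.0772 to 0.333 RPKM) and Nqo1 (0.0737 to 0.397 RPKM) were under the filter. For 7aaRGD against Vehicle limma called 0% of 9664 genes, with 3.78% under an unadjusted p of 0.05. The 8 genes lay between -0.12 and 0.38, and Sqstm1 alone did not overlap, at 72.0, 86.6 and 92.6 RPKM against 65.3, 69.8 and 70.9 RPKM, as for 10.8% of all genes (0.28, SE 0.114, adjusted p = 0.941).

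With 7aaRAE, the control peptide, 4 of the 8 genes did not overlap Vehicle, all of them higher, where 16.5% of all genes did not overlap and 7% did so upward. Hmox1 stood at 94.3, 112 and 249.8 RPKM against 47.0, 64.4 and 70.2 RPKM with Vehicle and 57.3, 84.9 and 97.96 RPKM with 7aaRGD. Its log2 fold change from Vehicle was 1.20 (SE 0.349, 95% interval 0.41 to 1.98) with an adjusted p of 0.453, and with each sample left out in turn it ran from 0.77 to 1.47. Txnrd1 was 10.4, 12.1 and 12.3 RPKM against 7.73, 8.66 and 10.1 RPKM (0.36, SE 0.141). Sqstm1 was 80.8, 82.5 and 97.8 RPKM against the Vehicle values above (0.33, SE 0.114), and Gclm differed by 0.16 (SE 0.0890). No member was called, and 0.0103% of all genes were. The summed immediate early and heat shock genes were at 887 to 1290 RPKM with Vehicle, 1201 to 1943 RPKM with 7aaRGD and 1180 to 1626 RPKM with 7aaRAE. The monocyte markers summed to 117 to 136 RPKM with Vehicle and 71.7 to 107 RPKM with 7aaRAE, where 8 of 8 tested were lower, 4 with no overlap, and the microglia markers to 8561 to 10650 RPKM and 7279 to 9053 RPKM, where 9 of 9 were lower, 3 with no overlap. None of these markers was called, and their part in the values of the 10 genes was not tested.

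The 2 peptides were compared directly over the same 8 genes. All 8 were lower with 7aaRGD, between -0.81 for Hmox1 (95% interval -1.60 to -0.03) and -0.06, and none was called, as for the whole table (0%, with 3.37% under an unadjusted p of 0.05, lowest adjusted p of the 8 genes 1.000). The comparisons with Vehicle share its 3 samples. Srxn1, Prdx1, Gsr and Gclc overlapped between all 3 groups, with Gsr between 6.55 and 11.5 RPKM and Gclc between 10.5 and 12.4 RPKM. Nfe2l2 stood between 52.4 and 70.7 RPKM, with differences of 0.16 (SE 0.139) and 0.05 (SE 0.139) from Vehicle, and none of the 38 other pathway genes was called.

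**Figure D4:**
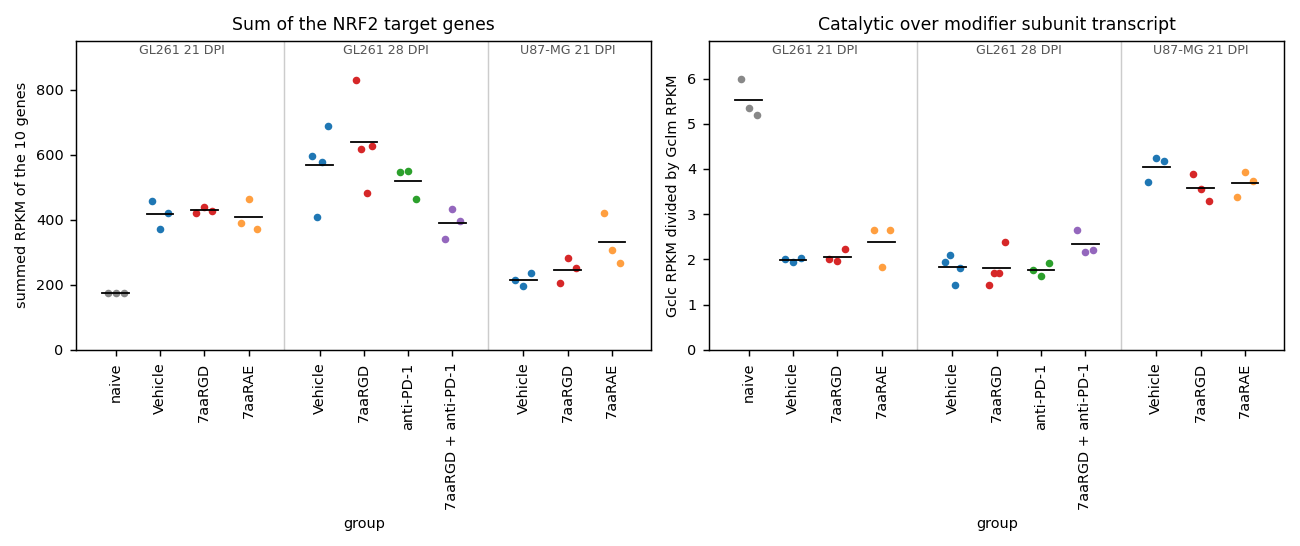
Left, summed RPKM of the 10 genes in each sample (dots) with the group mean (line). Right, Gclc RPKM divided by Gclm RPKM. Both axes start at 0. The sum is lowest in naive brain (mean 174.6) and highest at 28 DPI with 7aaRGD (mean 640.2), and the ratio is highest in naive brain (mean 5.52).

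The 3 tables were normalized separately, so levels across them are set side by side with no test. Among the tumor-bearing Vehicle groups, Gsr was 54.2 ± 5.01 RPKM at 21 DPI, 78.85 ± 14.97 RPKM at 28 DPI and 8.41 ± 0.751 RPKM in U87-MG tumors, where naive C57BL6 brain had 9.38 ± 0.290 RPKM (SD, n = 3, 4, 3 and 3). Slc7a11 was 4.11 ± 1.02, 4.45 ± 0.878 and 0.115 ± 0.0469 RPKM in the same Vehicle groups. Hmox1 was 134.5 ± 32.1, 226 ± 87.5 and 60.6 ± 12.1 RPKM. Gclc ran 5.94 ± 0.658, 11.1 ± 0.528 and 11.2 ± 0.888 RPKM, under the 21.0 ± 1.07 RPKM of naive brain. For Slc7a11, Gsr, Srxn1, Prdx1, Txnrd1, Hmox1 and Sqstm1 the mean U87-MG Vehicle levels lay nearer to naive brain than those of either GL261 Vehicle group. Gclc in U87-MG Vehicle was close to its 28 DPI Vehicle level. Gclm, at 2.78 RPKM, was further from naive brain (3.82 RPKM) than the 21 DPI Vehicle group (2.98 RPKM). Host strain, tumor line, cell mixture and table cannot be told apart in this contrast.

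Across the 32 tumor-bearing samples, with the mean of each table taken off, log2(RPKM + 1) of the genes was compared by Pearson's r, given as a description since samples share treatments and normalization. The highest values among the genes were those of Gsr with Gclm (0.77) and with Gclc (0.77), of Gclm with Hmox1 (0.75) and Gclc (0.74), and of Srxn1 with Prdx1 (0.70). Txnrd1 had 0.62 with Srxn1 and 0.62 with Hmox1, and Sqstm1 had its highest value, 0.61, with Gsr. Prdx1 was least like Sqstm1 (-0.14) and Gsr (0.09). Over the 8911 genes tested in all tables, the gene most like Hmox1 was Gclm (0.75), followed by Mafg, a small MAF partner (0.69), and Rnf10 (0.68). For Gclm the nearest were Psmc1 (0.81), Mri1 (0.81) and Osgin1 (0.80), and for Gclc Vash1 (0.87), Ap1s2 (0.87) and Gorasp2 (0.86). Gsr was most like Akt1 (0.91), Def6 (0.91) and Mindy1 (0.90), and Sqstm1 like Mbtd1 (0.89), Pnpla2 (0.85) and Slc9a3r1 (0.85). Srxn1 had Pum3 (0.72), Ppp2r5b (0.72) and its own substrate Prdx1 (0.70), Prdx1 had Eif2s1 (0.80), Eloc (0.79) and Eef1e1 (0.78), and Txnrd1 had Msr1 (0.79), Klhl2 (0.78) and Pgs1 (0.76).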

How the data were processed

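Poly-A RNA of FACS-sorted CD11b+ cells was sequenced from strand-specific libraries. Per the labels and the study's methods, trimming was done by the authors with Trimmomatic, alignment to mm10 with STAR and counting per gene with HTSeq 0.11.1. The deposited values are on the scale of RPKM with 2 added. Rows without signal held exactly 2, and the values less 2, weighted by exon length, gave almost equal sums across samples. The normalization by the authors is not given in the sources used here, and 6.6% to 18.0% of values in rows with signal were below 2, which a plain RPKM with 2 added cannot be. Read counts and depth per sample are unknown, and no interval for counting error can be given. Genes overlapping on the same strand could share reads.

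The constant was subtracted, values under 0 were set to 0, and log2(RPKM + 1) was fitted with limma 3.58.1 in R 4.3.3 (lmFit, eBayes with trend) over protein-coding genes that averaged 1 RPKM or more. Symbols matched GENCODE vM21 for 98.8% of rows. The groups with tumors shared 1 fit per experiment, naive and Vehicle had their own, and p-values were adjusted by Benjamini-Hochberg over all genes tested. The study used NOISeq on counts, which was not run. Replicates are separate animals or pools. Replicate numbers showed no sign of pairing the samples: deviations correlated above 0.1 in 1 of 9 pairs at 21 DPI and 3 of 19 at 28 DPI. That check cannot exclude pairing, since 1 component of the replicate differences may have been removed before deposit. The fit was tested on simulated data. All 10 members and Nfe2l2, Keap1 and Bach1 were named throughout. From each other list of the pathway at most the 2 largest rises and falls past the threshold were named per comparison. The 3 genes most like each member were also named. The members and lists were chosen with earlier results of these data known. Alternatives were other pseudocounts (0.1 and 5), filters, gene sets, factors, groups fitted, the replicate block, single samples left out and, chosen after seeing the data, 1 residual degree of freedom less.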

Additional observations from a re-analysis of the deposited data

Results flagged for a closer look

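In groups of 4 samples, each member was checked for a sample whose gap to the others takes up most of the group's range (Dixon's 95% criterion, 20 gene and group pairs, of which chance flags about 1 in 20). Both results came from sample 3 of the 7aaRGD group at 28 DPI. Its Txnrd1 was 14.65 RPKM where the others lay between 19.35 and 19.85 RPKM, and its Srxn1 was 6.517 RPKM where the others lay between 9.70 and 9.94 RPKM. In the same sample Prdx1 (87.1 RPKM), Hmox1 (184.7), Gsr (51.2), Gclc (10.3) and Slc7a11 (2.97) were also the lowest of their group. Sqstm1 (118.5 RPKM) and Nqo1 (0.409) were the highest, and Gclm (6.04) lay in between.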

How the results depend on the processing

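The number of members called in each comparison stayed within 1.5 times its value in all 112 alternative fits and all 91 fits that left out 1 sample, and no called log2 fold change changed sign. With samples left out, the members called ran from 2 to 3 for anti-PD-1 and from 4 to 5 for the combination, against Vehicle and against 7aaRGD. Of the single-gene results under other settings, 270 kept their side of the threshold, and the 2 that lost it, both under median-of-ratios factors, are given above. With 1 residual degree of freedom less, a step chosen after seeing the data, every member kept its side.

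The replicate number showed no sign of pairing the samples. As a block it gave 9 members called for Vehicle against naive (Slc7a11 included). It gave 3 for anti-PD-1 and 4 for the combination against Vehicle, and all these counts were as without it. No paired analysis was possible because the U87-MG columns carry no replicate numbers, for that experiment only. Over all genes the counts of calls with 7aaRGD were unstable: at 21 DPI 14 became 0 with a pseudocount of 0.1 and 74 with naive samples added, and at 28 DPI 63 became 0 with only the groups compared. Depth is unknown, so the floor under Nqo1 and Slc7a11 cannot be set.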
